A study of Mus musculus with 4 samples.

Results

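The cartilage programme of the embryonic lower jaw was followed through 33 chondrocyte genes in mandibular dental arches of Ascl5 mutant and wild-type mouse embryos. The genes were taken by symbol from a list of cartilage matrix genes, the Sox trio of transcription factors, and hypertrophic and growth-plate genes, and all 33 were found among the 24972 rows of the deposited table. The study holds 4 libraries from embryonic day 17.5. Of these, 2 came from Ascl5MutMut embryos, homozygous for a variant of Ascl5 (sample codes E18 and E14), and 2 from Ascl5WTWT embryos (E15 and E20). The codes are not embryonic days, and no strain, treatment or pooling is given for either genotype in the sources used here. Ascl5 belongs to the achaete-scute family of basic helix-loop-helix factors, and the comparison asks how gene expression in the forming jaw differs when both copies carry the variant. What the variant changes in the gene or its protein is not described. The samples are separate ones per genotype, but whether they come from separate litters is not stated, and p-values cover only the variation among these 4 libraries, some of which can be technical.

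Meckel's cartilage is the rod of hyaline cartilage along which the bone of the lower jaw forms in the embryo. Most of it is later resorbed or replaced, and further cartilage forms at the condyle. In chondrocytes SOX9, working with SOX5 and SOX6, switches on the genes for type II, IX and XI collagens, aggrecan and the matrilins. PTHrP and FGF signals received by PTH1R and FGFR3 then set when cells stop dividing, enlarge and make type X collagen. The tissue sampled is a whole dental arch, so these values cannot say which cartilage the RNA came from. Several of the genes are also known from other tissues of the jaw: type XI collagen, PTH1R, FGFR3, WWP2 and RUNX3 are made outside cartilage too.

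The libraries held between 22134483 and 22578580 normalized counts in total. Xist, made from the inactive X chromosome, stood at 38619 normalized counts in wild-type E15 and between 5.005 and 12.7 in the other 3 libraries, and the Y-linked Ddx3y was listed at 0 in E15 and lay between 2382 and 3027 in the others. Sex was therefore not balanced between the genotypes. Of 17979 genes tested, 2 passed the threshold, and neither is among the 33. Markers of dentin (Dspp), muscle (Acta1) and oral epithelium (Krt14) were present in every library.

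The chondrocyte genes as a group lay lower in the mutant libraries, by a modest amount. All 33 passed the filter on low values, 31 of them had a lower mean in mutant, and the median log2 fold change (mutant minus wild type) was -0.40, where the median of all tested genes was 0.0025. For comparison, 49.4% of all tested genes had a lower mean in mutant. Both mutant libraries lay below both wild-type libraries for 21 of the 33, which was the case for 14% of all tested genes, and none of the 33 lay above without overlap (13.4% of all genes). The 33 were chosen with earlier results of these data known. They can also vary together with the amount of cartilage in each library, so they are not 33 separate observations. Individually, 0 of 33 passed the threshold of an adjusted p under 0.05 in limma, which 0.0111% of all genes did. At an unadjusted p under 0.05 there were 10, all lower in mutant, and 1.15% of all genes met that mark in that direction. That number depended on single libraries and on the model: it was 3 without mutant E14, 5 without wild-type E15, 7 without mutant E18, 10 without wild-type E20 and 4 without the mean-variance trend. In the other 7 alternatives it lay between 9 and 11. Comp had the smallest adjusted p, 0.455 (limma with Benjamini-Hochberg adjustment). With 2 libraries against 2, an exact permutation test of a single gene cannot give a p under 0.333.

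Summed over the 33 genes, the normalized counts were 114229.6 and 91357 in mutant E18 and E14, against 146108 and 125363 in wild-type E15 and E20. These sums made up 0.508% and 0.413% of all normalized counts in the mutant libraries and 0.654% and 0.555% in the wild-type libraries. The genotypes did not overlap in this sum. Most of it came from the 6 collagens of types II, IX and XI, so a few genes set it. These held 79814 and 61798 normalized counts in mutant E18 and E14, against 103686 and 84482 in wild-type E15 and E20. In bulk tissue, fewer cartilage cells and less of these RNAs per cell cannot be told apart.

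**Figure D1:**
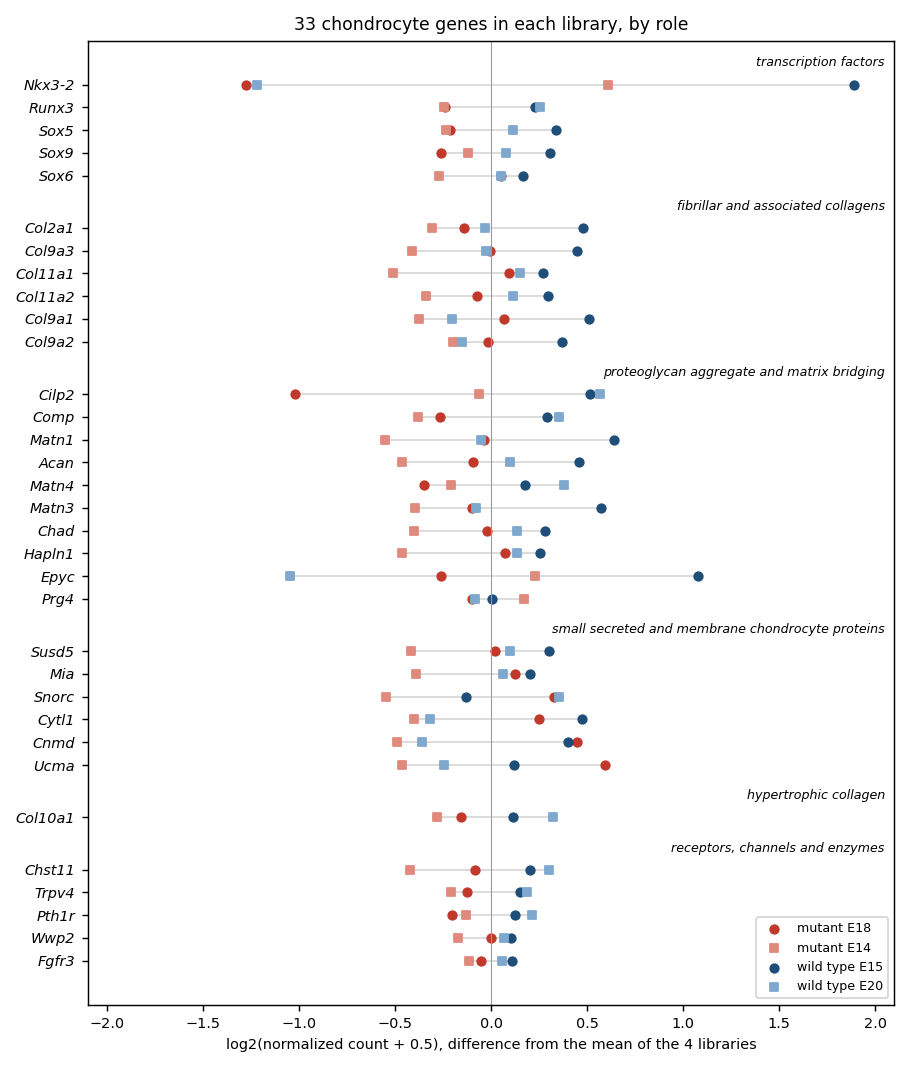
Each of the 33 genes by role, one row per gene, with 1 point per library (red, mutant E18 and E14; blue, wild type E15 and E20). The horizontal axis is log2(normalized count + 0.5) as a difference from the mean of the 4 libraries; red points lie to the left of blue ones for 21 genes, while Nkx3-2, Epyc, Cnmd and Ucma show wide spreads within a genotype.

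The 95% intervals of the log2 fold changes from limma lay wholly below 0 for the 10 genes with an unadjusted p under 0.05 and included 0 for the others. The lowest log2 fold change was that of Cilp2 (-1.08) and the highest that of Ucma (0.13). Both within-genotype gaps, E15 against E20 and E18 against E14, were smaller than the genotype difference for 15 of the 33 genes, all lower in mutant, where 8.78% of all tested genes were lower in mutant by that measure.

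**Figure D2:**
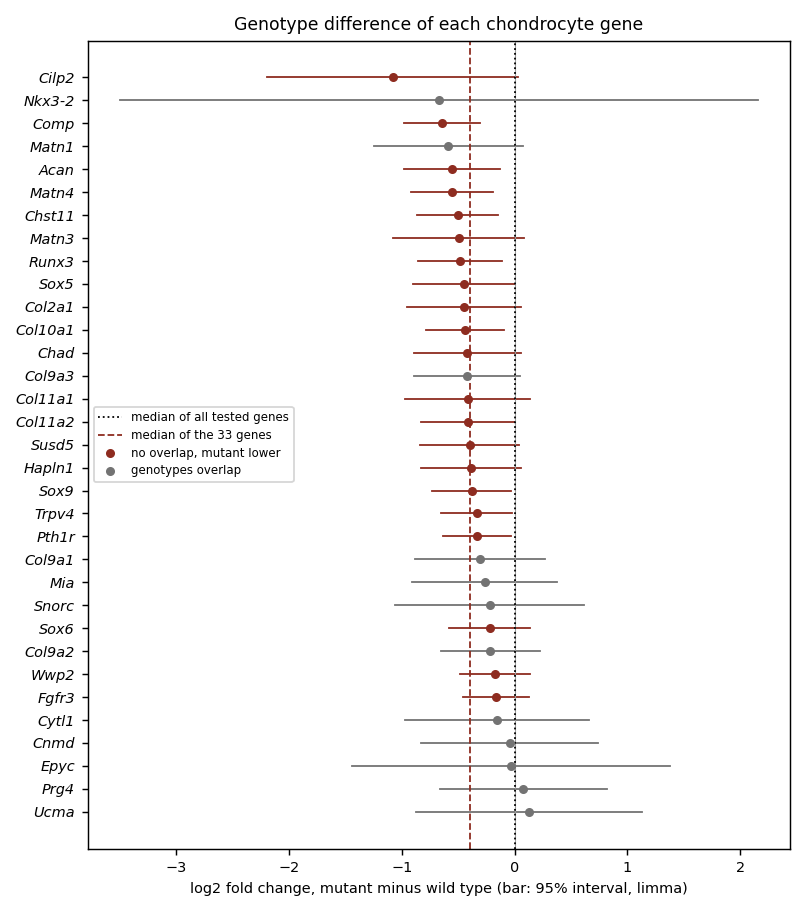
Log2 fold change (mutant minus wild type) of each gene with its 95% interval from limma, sorted from the lowest. Dark red marks the 21 genes whose mutant libraries both lay below both wild-type libraries; the dashed line is the median of the 33 genes (-0.40) and the dotted line the median of all tested genes (0.0025).

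Of the 5 transcription factors, all had a lower mean in mutant and 4 showed no overlap. For this and the other roles, the share of all tested genes that were lower without overlap was 14%. Sox9 (chromosome 11, 112782210 to 112787757, GRCm38), the regulator that chondrocytes depend on throughout their life, stood at 765 and 843 normalized counts in mutant E18 and E14, against 1133 and 968 in wild-type E15 and E20. Sox5, which acts together with Sox6 to strengthen SOX9 at its target genes, was at 209 and 205 in mutant and 306 and 263 in wild type. For both, each mutant library lay below each wild-type library, with log2 fold changes of -0.38 (SE 0.15) for Sox9 and -0.45 (SE 0.19) for Sox5 (limma, unadjusted p = 0.0355 and 0.0485, adjusted p = 0.9999 for both). Sox6 was at 1378 and 1102 in mutant and 1494 and 1379 in wild type. Mutant E18 and wild-type E20 were nearly equal for Sox6, so its lack of overlap is nominal (log2 fold change -0.22, SE 0.15, unadjusted p = 0.194). Runx3, which shares with Runx2 the control of chondrocyte maturation, separated the genotypes most evenly, at 335 and 333 in mutant and 463 and 472 in wild type. Libraries of the same genotype were almost identical for Runx3 (log2 fold change -0.48, SE 0.16, limma adjusted p = 0.901). Nkx3-2, a homeobox gene of immature chondrocytes and the jaw joint region, was close to the floor, at 0.98 and 4.97 in mutant and 12.8 and 1.04 in wild type, and overlapped.

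The 6 cartilage collagens all had lower means in mutant, and 3 showed no overlap. Col2a1 (chromosome 15, 97975602 to 98004724), which encodes the main fibril of cartilage, was at 22118 and 19668 in mutant E18 and E14, against 33874 and 23862 in wild-type E15 and E20. Wild-type E20 was 1.08 times mutant E18, and the gap between the wild-type libraries (0.51 on the log2 scale) was larger than the genotype difference (-0.45, SE 0.22, limma adjusted p = 0.9999). Without wild-type E15 the log2 fold change of Col2a1 was -0.19, and without wild-type E20 it was -0.70. The type XI chains, which set the width of type II fibrils, showed no overlap either. Col11a1 was at 31889 and 20978 in mutant and 36013 and 33172 in wild type (log2 fold change -0.42, SE 0.24). Col11a2 was at 17657 and 14711 in mutant and 22864 and 20166 in wild type (-0.41, SE 0.18, limma unadjusted p = 0.0513). For both chains mutant E14 was the lowest library. Without it the log2 fold change of Col11a1 was -0.12, and without mutant E18 it was -0.72.

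The 3 chains of type IX collagen, which coats type II fibrils, overlapped between genotypes. Col9a1 was at 3393 and 2495 in mutant E18 and E14 and at 4606 and 2806 in wild-type E15 and E20 (log2 fold change -0.31, SE 0.25). Col9a2 and Col9a3 had log2 fold changes of -0.22 and -0.42, and all 3 chains ran from E15 through E18 and E20 down to E14. A mutant library thus stood above a wild-type library for each. Without wild-type E15 the log2 fold changes of Col9a1 and Col9a2 turned to 0.052 and 0.044, and that of Col9a3 was -0.18.

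Among 10 genes of the proteoglycan aggregate and of proteins that bridge the matrix, 9 had a lower mean in mutant and 7 showed no overlap. Comp (chromosome 8, 70373548 to 70382066), the pentameric cartilage oligomeric matrix protein of cartilage and tendon, was at 542 and 502 in mutant E18 and E14, against 800.1 and 834 in wild-type E15 and E20. The lowest wild-type library was 1.48 times the highest mutant library, and the log2 fold change was -0.65 (95% interval -0.98 to -0.31). Its log2 fold change stayed between -0.70 and -0.59 with any 1 library left out. Acan, which encodes the large aggregating proteoglycan aggrecan, was at 4394 and 3402 in mutant E18 and E14 and at 6448 and 5017 in wild-type E15 and E20. The genotypes did not overlap for Acan (log2 fold change -0.56, SE 0.18, limma unadjusted p = 0.0171, adjusted p = 0.901). Hapln1, the link protein that ties aggrecan to hyaluronan, was at 5324 and 3673 in mutant and 6031 and 5557 in wild type (-0.39, SE 0.19). Its lowest wild-type library was 1.04 times its highest mutant library, and its log2 fold change was -0.12 without mutant E14.

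The matrilins, adaptors between collagen fibrils and proteoglycans, differed among themselves. Matn4, the member found most widely outside cartilage, was at 504 and 555 in mutant E18 and E14, against 725 and 836 in wild-type E15 and E20 (log2 fold change -0.56, SE 0.16, limma adjusted p = 0.692). Matn1, which is largely restricted to cartilage, was at 252 and 176 in mutant and 402 and 249 in wild type, where E18 and E20 were level. Matn1 overlapped between genotypes, with a log2 fold change of -0.59 (SE 0.28). Matn3 (-0.50) lay lower, with wild-type E20 at 1.02 times mutant E18. Without wild-type E15 the log2 fold changes were -0.66 for Matn4, -0.24 for Matn1 and -0.17 for Matn3. Chad, a leucine-rich protein that binds collagen and integrins, was lower without overlap (-0.42, SE 0.20).

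Of the remaining matrix genes, Cilp2, a cartilage intermediate layer protein, was low but even in wild type, at 10.6 and 21.2 normalized counts in mutant and 31.8 and 32.995 in wild type (limma unadjusted p = 0.055). Epyc, a small leucine-rich proteoglycan of epiphyseal cartilage, was at 85.3 and 119.6 in mutant and 216 and 49.2 in wild type. The wild-type libraries of Epyc thus lay on either side of both mutant libraries. Prg4, the lubricin of joint surfaces, was at 46.4 and 56.1 in mutant and 49.9 and 46.8 in wild type, a log2 fold change of 0.077 with a 95% interval of -0.67 to 0.82.

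The 6 small secreted and membrane proteins of chondrocytes showed the least separation of the roles with several genes, with 5 lower means and 1 gene without overlap (median log2 fold change -0.19). That gene was Susd5, a sushi-domain protein, with a log2 fold change of -0.40 (SE 0.19). The direction of this role depended on single libraries. Without mutant E14, 2 of the 6 were lower and the median was 0.19, and without wild-type E15, 3 were lower and it was 0.022. The median was -0.52 without mutant E18 and -0.38 without wild-type E20. Ucma, a vitamin K-dependent protein of the cartilage matrix, was at 66.8 and 31.8 in mutant E18 and E14, against 48.0 and 37.2 in wild-type E15 and E20. Mutant E18 was the highest and mutant E14 the lowest of the 4 libraries for Ucma. Cnmd, the anti-angiogenic chondromodulin, had the same order, at 920.2 and 481 in mutant and 893 and 527 in wild type. Its mean was 701 ± 311 in mutant and 710.0 ± 259 in wild type (SD, n = 2 each), a log2 fold change of -0.044 with a 95% interval from -0.83 to 0.74. Snorc, a transmembrane proteoglycan of chondrocytes, Mia, a small secreted protein also called CD-RAP, and Cytl1, a cytokine-like protein, had log2 fold changes of -0.22, -0.27 and -0.16, and all overlapped.

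Col10a1 (chromosome 10, 34389981 to 34397085), the collagen of hypertrophic chondrocytes, was at 6991 and 6418 in mutant E18 and E14 and at 8451 and 9771 in wild-type E15 and E20. Both mutant libraries lay below both wild-type libraries, and here E20 and not E15 was the higher wild-type library. The log2 fold change was -0.44 (SE 0.15, limma unadjusted p = 0.0193, adjusted p = 0.923).

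All 5 genes for receptors, channels and enzymes showed no overlap, and all were lower in mutant. Pth1r, the receptor for parathyroid hormone and PTHrP, was at 3684 and 3871 in mutant and 4617 and 4906 in wild type (log2 fold change -0.33, SE 0.13, limma unadjusted p = 0.0346). Trpv4, a cation channel that responds to osmotic and mechanical load, was at 864 and 816 in mutant and 1049 and 1073 in wild type (-0.34, SE 0.13, unadjusted p = 0.0382). Chst11, which adds sulfate to chondroitin chains, was at 1478 and 1167 in mutant and 1804 and 1932 in wild type (-0.51, SE 0.16, limma adjusted p = 0.788). In these 3 genes the wild-type libraries differed little from each other. Fgfr3, the receptor that restrains chondrocyte proliferation, was at 2711 and 2602 in mutant and 3034 and 2931 in wild type, a smaller step of -0.17 (SE 0.13). Wwp2, a ubiquitin ligase gene, had a log2 fold change of -0.18 (SE 0.13).

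The lack of overlap took different forms. The order E15, E20, E18, E14 from high to low was found for 12 genes, among them Col2a1, Acan, Sox5, Col11a1, Col11a2 and Hapln1. For these, wild-type E15 was the highest and mutant E14 the lowest, with the other 2 libraries in between. In a further 8 genes without overlap, Comp, Runx3, Col10a1, Trpv4, Chst11, Matn4, Cilp2 and Pth1r, wild-type E20 was the highest. Over all 33 genes, E15 was the highest library for 21 and E14 the lowest for 26, where E15 was the highest for 26.6% and E14 the lowest for 23.5% of all tested genes. E15 is also the library that differed from the others in Xist and Ddx3y, and the part of sex was not tested. Between the libraries nearest each other, wild-type E20 was above mutant E18 for 24 of the 33 genes and for 50.6% of all tested genes.

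In 8 genes, Col9a1, Col9a2, Col9a3, Matn1, Ucma, Cnmd, Mia and Cytl1, mutant E18 and wild-type E15 were both above mutant E14 and wild-type E20. The same was the case for 14.2% of all tested genes. This set was recognised after the values were seen, and no test was made of it. Skeletal muscle markers moved with it: 7 of 10 had the same split, and their summed normalized counts were 202650.04 and 112488 in mutant E18 and E14 and 171785 and 136958 in wild-type E15 and E20. The part of muscle in these values was not tested.

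**Figure D3:**
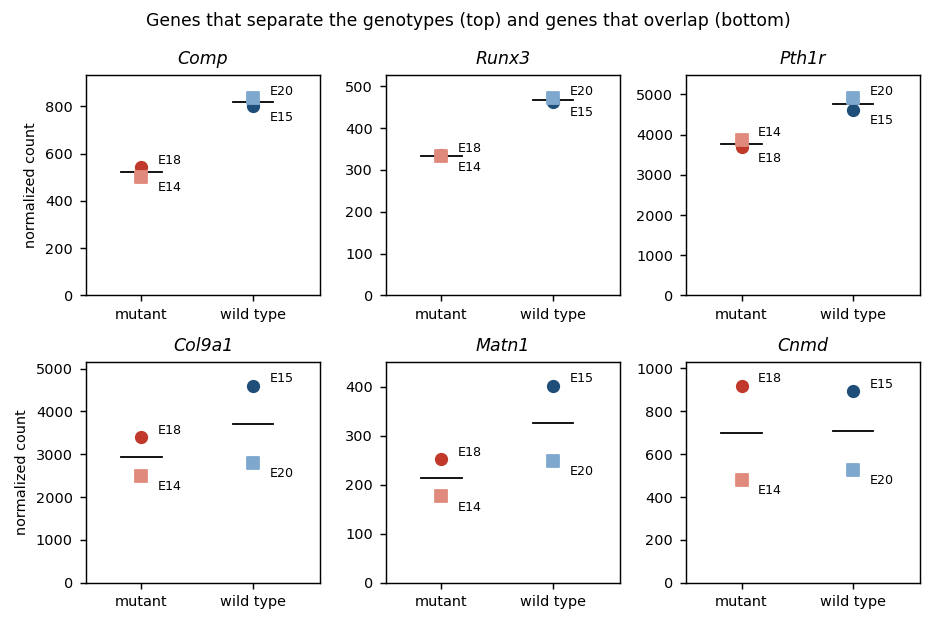
Normalized counts of 6 genes by genotype, 1 point per library with its sample code, horizontal lines for the mean of the 2 libraries. Comp, Runx3 and Pth1r (top) separated the genotypes with close replicates, while Col9a1, Matn1 and Cnmd (bottom) overlapped, with E18 above E14 and E15 above E20.

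The genes were also divided by Col2a1 in the same library. Of the 32 other genes, 28 overlapped in this log2 ratio and 4 were higher in mutant without overlap, namely Col9a2, Ucma, Prg4 and Wwp2. Of all other tested genes, 41.8% overlapped in the ratio, 56.8% were higher and 1.34% lower in mutant without overlap. The gap in Col2a1 between wild-type E15 and E20 enters every one of these ratios. Without wild-type E15 the mutant minus wild-type difference in the ratio was -0.48 for Comp and -0.46 for Matn4, against -0.20 and -0.11 with all libraries. Acan stood at -2.33 and -2.53 in mutant E18 and E14 and at -2.39 and -2.25 in wild-type E15 and E20. Col10a1 stood at -1.66 and -1.62 in mutant, between the wild-type values of -2.003 and -1.29. Sox9 likewise overlapped (-4.85 and -4.54 in mutant, -4.90 and -4.62 in wild type). A ratio of this kind shows whether 2 genes changed unequally and not that either was unchanged.

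Per kilobase of exon, in the GENCODE vM21 annotation of the same build, the levels covered a wide range. Averaged over the 4 libraries, Col11a2 (2742 normalized counts per kb), Col2a1 (2692), Col10a1 (2526) and Col11a1 (2394) led the 33 genes, all above the 98th percentile of tested genes with a length. These 4 lay close together, and their order changed between libraries: Col10a1 was above Col2a1 in wild-type E20 (3122 against 2582 per kb) and below it in E15 (2700.1 against 3665). Pth1r followed at 1460 per kb, ahead of the type IX chains, Hapln1 and Acan (645). The regulators were lower, with Sox9 at 224, Sox6 at 90.2, Runx3 at 80.1 and Sox5 at 17.1 per kb. At the low end stood Prg4 (11.6), Cilp2 (5.60) and Nkx3-2 (2.88), so fold changes of the last 2 rest on few reads.

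The stretches just before the transcription start were read for members that lay lower together, to show what these starts look like at the sequence level. Promoters were matched by symbol in RefSeq sequences of GRCm38.p6, and 27 of the 33 genes had an entry. Col2a1, Sox9, Comp, Col9a3, Prg4 and Snorc had none. Of the 10 genes with an unadjusted p under 0.05, Acan, Sox5, Col10a1, Trpv4 and Chst11 had a single listed start, and 3 of these are printed, a proteoglycan, a regulator and the hypertrophic collagen, each as the 250 bases before the start, 5′ to 3′ on the gene's strand. Capitals mark a core motif of SOX factors, ACAAT or ACAAAG on either strand. The Acan stretch lies on the plus strand at chr7:79052976-79053225, that of Sox5 on the minus strand at chr6:143947107-143947356, and that of Col10a1 on the plus strand at chr10:34389731-34389980. The Sox5 start lies within the annotated gene and not at its outer end.
Acan: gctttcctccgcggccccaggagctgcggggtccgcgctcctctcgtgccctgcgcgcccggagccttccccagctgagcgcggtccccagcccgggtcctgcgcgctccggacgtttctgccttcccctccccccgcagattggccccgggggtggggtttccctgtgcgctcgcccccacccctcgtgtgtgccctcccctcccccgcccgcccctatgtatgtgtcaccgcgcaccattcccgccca
Sox5: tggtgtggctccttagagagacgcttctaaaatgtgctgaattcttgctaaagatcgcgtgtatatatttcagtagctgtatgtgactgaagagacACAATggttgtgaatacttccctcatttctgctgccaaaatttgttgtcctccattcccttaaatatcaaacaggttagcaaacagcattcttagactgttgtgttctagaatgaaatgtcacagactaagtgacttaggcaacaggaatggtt
Col10a1: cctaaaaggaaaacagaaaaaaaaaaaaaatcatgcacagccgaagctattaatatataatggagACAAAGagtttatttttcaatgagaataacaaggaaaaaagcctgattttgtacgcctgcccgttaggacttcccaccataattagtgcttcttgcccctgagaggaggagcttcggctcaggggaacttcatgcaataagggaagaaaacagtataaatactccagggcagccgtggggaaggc

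These starts were unlike in composition, with 74.4% G and C for Acan, 39.6% for Sox5 and 41.6% for Col10a1, where the median of all listed promoters was 52.4%. ACAAT began 154 bases before the Sox5 start and ACAAAG 185 bases before the Col10a1 start. The searched SOX letters (ACAAT or ACAAAG, both strands) were in 14 of 39 promoters of the 33 genes (35.9%) and in 42.9% of all 32851 promoters, each read from 250 bases before to 50 bases after the start. RUNX letters (TGTGGT or TGCGGT, both strands) were in 9 of the 39 (23.1%) and in 22.4% of all. None of the 3 printed stretches holds the RUNX letters. Trpv4 and Chst11, whose starts are not printed, had 72.0% and 70.0% G and C and held neither the SOX nor the RUNX letters. These are matches of letters in a short window and say nothing of binding.

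Other genes of the cartilage pathway were read from lists chosen beside the 33. Of 22 further chondrocyte genes, 17 had a lower mean in mutant and 5 a higher one, with a median log2 fold change of -0.16, 9 lower without overlap and 1 higher without overlap. Without wild-type E15 the median was -0.047 and 12 were lower. None passed the threshold. The collagen-binding integrin chain Itga10 was at 2205 and 1873 in mutant and 2987 and 2703 in wild type (log2 fold change -0.48, SE 0.14). The lysyl oxidase family gene Loxl4 was at 2143 and 2184 in mutant and 2882 and 2935 in wild type (-0.43, SE 0.12). Barx2, a homeobox gene also known from epithelia and muscle, went the other way, at 596 and 898 in mutant and 457 and 466 in wild type.

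All 12 genes of hypertrophy and cartilage resorption had lower means in mutant (median log2 fold change -0.30), with 5 showing no overlap and none passing. Besides Ihh, Foxa2, Runx2 and Mmp13, the list held Spp1, Ibsp, Alpl, Mmp9, Mef2c, Foxa3, Panx3 and Vegfa. It was not limited to genes of cartilage, and the part of bone in it was not tested. Single libraries decided the direction of this list: without mutant E14 only 5 of 12 were lower and the median was 0.11, and without mutant E18 all 12 were lower and the median was -0.64. Their summed normalized counts were 253593 and 137609 in mutant E18 and E14, against 202427 and 257347 in wild-type E15 and E20, which overlap. Ihh, the hedgehog ligand made by prehypertrophic chondrocytes, was at 97.3 and 157 in mutant and 222 and 238 in wild type (-0.89, SE 0.27, limma adjusted p = 0.788). Pthlh, which encodes PTHrP, was at 166 and 193 in mutant and 229.9 and 219.8 in wild type. Foxa2, a regulator of hypertrophy, was near the floor, at 1.92 and 2.02 in mutant and 11.3 and 8.01 in wild type. Runx2, shared with bone, had a log2 fold change of -0.50 (SE 0.16). The collagenase Mmp13 overlapped, at 28724 and 11083 in mutant and 17121 and 25376 in wild type.

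Markers of neighbouring tissues were read in the same libraries. Of all tested genes, 49.4% had a lower mean in mutant, 14% were lower without overlap and 13.4% higher without overlap. Osteoblast and osteocyte markers were lower in mean for 11 of 15 genes, 8 of them without overlap, and 1 gene was higher without overlap. Their median log2 fold change was -0.39, which was -0.14 without mutant E14 and -0.55 without mutant E18. Their summed normalized counts were 449166 and 446382 in mutant E18 and E14, against 584246 and 565477 in wild-type E15 and E20. Tendon and ligament markers were lower for 9 of 10, 5 without overlap, and 1 was higher without overlap. Their sums were 54072 and 41833 in mutant and 58475 and 53959 in wild type, which overlap. Scx, the regulator of tendon cells, was at 214 and 193 in mutant and 239 and 276 in wild type, and Tnmd, a tendon membrane protein, overlapped. Among the chondrocyte genes, Comp, Chad and Cilp2 are also made in tendon, and Pth1r and Runx3 in bone-forming cells.

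Genes of the covering epithelium ran the opposite way. All 12 oral and skin keratinocyte markers had higher means in mutant, 8 without overlap, and their sums were 154683 and 236105 in mutant E18 and E14, against 94278 and 90195 in wild-type E15 and E20. The median log2 fold change of this list was 0.78, and 0.63 without mutant E14, where 1 gene was lower. All 8 tested salivary gland markers had higher means in mutant and summed to 46.8 and 6368 in mutant and 22.8 and 4.98 in wild type, so mutant E14, the library with the lowest chondrocyte sum, also held nearly all salivary RNA. All 8 neuron and Schwann cell markers had higher means in mutant, with sums of 1678 and 3562 in mutant and 1636 and 1605 in wild type. Their median log2 fold change was 0.60, but 0.12 without mutant E14, where 3 of the 8 were lower. Macrophage markers (6 of 7 higher) summed to 9034 and 6557 in mutant and 6434 and 7527 in wild type. Their median log2 fold change was 0.27, and 0.10 without wild-type E15, where 3 were lower. Dental mesenchyme and odontoblast genes were lower in mean for 6 of 10, where 49.4% of all tested genes were lower. This list had 5 genes lower and 1 higher without overlap, a median log2 fold change of -0.28 and none passing. That median was -0.044 without wild-type E20 and -0.48 without wild-type E15. Dlx2, a homeobox gene of jaw and tooth mesenchyme, was at 256 and 272 in mutant and 523 and 655 in wild type (-1.15, SE 0.18, limma adjusted p = 0.310). Barx1, a homeobox gene of molar mesenchyme, was at 588 and 579 in mutant and 955 and 1030.2 in wild type (-0.76, SE 0.14, limma adjusted p = 0.311). The perichondrium and fibrous mesenchyme list had a median of 0.084 and the blood vessel list one of -0.029. None of these lists held one of the 33 genes, and no listed marker was at 0 in all libraries. The part of these tissues in the chondrocyte values was not tested.

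**Figure D4:**
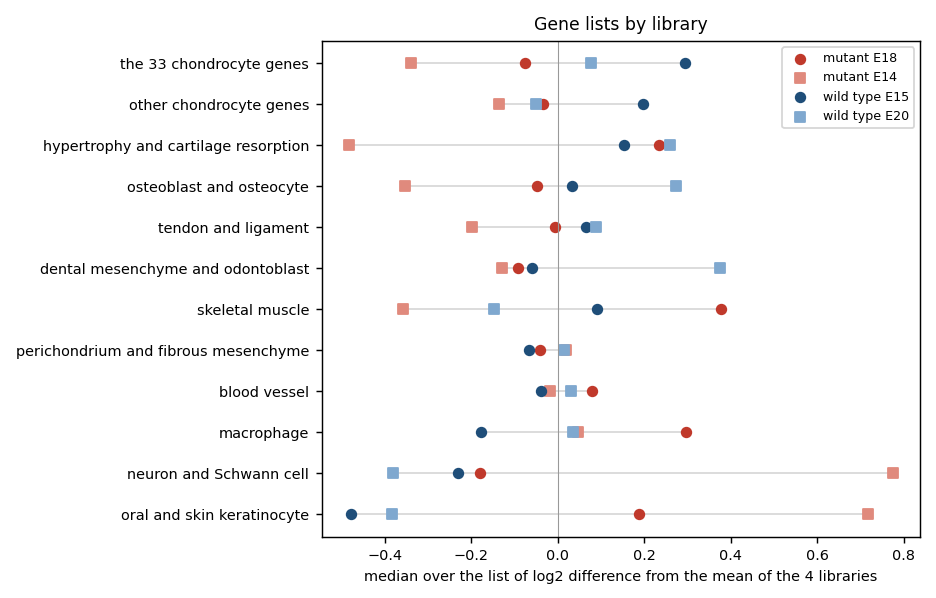
Median over each gene list of the log2 difference from the mean of the 4 libraries, 1 point per library (red, mutant; blue, wild type); the salivary list is left out because its range is far wider. The 33 chondrocyte genes ran from -0.34 in mutant E14 to 0.29 in wild-type E15, and keratinocyte markers lay on the opposite side in both genotypes.

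Single libraries weighed on the size of the difference. In fits that left out 1 library, the lone library is assumed to vary like the other genotype. Without mutant E14 the median log2 fold change of the 33 genes was -0.27 and 29 had a lower mean, and without wild-type E15 it was -0.27 with 25 lower. Without mutant E18 it was -0.51 with 30 lower, and without wild-type E20 it was -0.48 with 31 lower. Wild-type E15 is also the only library with high Xist and with Ddx3y at 0. Leaving it out thus also removes the sex difference, and the effects of sex and of this library cannot be told apart. The median of all tested genes stayed between -0.0046 and 0.0108 in these fits, and 0 of the 33 passed in any of them.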

How the data were processed

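RNA of mandibular dental arch was sequenced as 4 polyadenylated libraries made with a stranded kit, per the labels. The deposited signal is 1 normalized count per gene and library. Per the submitters' processing notes DESeq2 and build mm10 were used, with no version; the aligner, the counting tool, its strand setting and its annotation are each not given in the sources used here. Only 32.0% to 34.6% of values above 0 were whole multiples (within 0.1) of their library's commonest low value, so reads were not recovered and no count model was used.

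After a log2 transform with a pseudocount of 0.5, rows averaging 1 or more were kept (17979 of 24972). Genotype was fitted to all of these in R 4.3.3 (limma 3.58.1, variances moderated along a mean-variance trend), with Benjamini-Hochberg adjustment and a threshold of 0.05. Fold changes understate changes of low genes. The members and lists were chosen with earlier results of these data known. Named genes were the 33 members, up to 3 genes with the smallest p of each other list and fixed markers, not all of which are printed. Ctgf is the table's symbol for Ccn2. On simulated data with the same spread of 11.8% for every gene, the fit of 17786 genes called 96% of 50 genes with a 2-fold difference. It called 100% of those with 4-fold, 8-fold or 16-fold ones, with 4 false calls among 202. All changed genes had means of at least 50. No fold below 2 was tried. Real spreads vary between genes, so these shares do not carry over to the data, also for folds above 2. Dlx2, with a log2 fold change of -1.15 (SE 0.18), did not pass (limma adjusted p = 0.310). How often real differences would be called, among them ones as small as most of those in the 33 genes, is therefore unknown. Alternatives changed scaling, filter, pseudocount, variance model and weights, or left out a library. No libraries were duplicates: chi-square per gene was at least 16.1 in each pair. That smallest value was between wild-type E20 and mutant E18. Within a genotype it was 34.2 (E15 and E20) and 37.4 (E18 and E14), so over all genes the libraries did not group by genotype in this measure.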

Additional observations from a re-analysis of the deposited data

How the results depend on the processing

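The median log2 fold change of the 33 genes stayed below 0 and 0 of 33 passed in all 12 alternatives. Over all genes, 2 passed; the number was 1 without a filter on low values or without the mean-variance trend, 4 with a pseudocount of 1, 0 with vooma weights, 2 in the other 4 alternatives that kept all libraries, and 0 to 6 with 1 library left out. Those fits have 1 residual degree of freedom, and the lone library is assumed to vary like the other genotype. The direction was the same in every alternative for 24 of the 33 genes. For 9 it turned when 1 library was left out, with log2 fold changes of -0.51 to 0.42 for Cnmd, -0.66 to 0.052 for Col9a1, -0.48 to 0.044 for Col9a2, -0.55 to 0.24 for Cytl1, -1.09 to 1.03 for Epyc, -2.23 to 0.89 for Nkx3-2, -0.058 to 0.21 for Prg4, -0.66 to 0.21 for Snorc and -0.40 to 0.65 for Ucma. The cause was not tested. The no-overlap count of 21 was 20 with scaling to library totals. No paired analysis was made because the labels do not say whether any mutant and wild-type libraries are paired. Depth limits Nkx3-2, Cilp2 and Foxa2, which lie near the floor.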
